A study of Mus musculus with 6 samples.

Results

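The 10 genes described here carry out or control the making of new fatty acids: Thrsp, Srebf1, Mlxipl, Acly, Acaca, Acacb, Me1, Fasn, Elovl6 and Scd1. They were chosen by gene symbol as a pathway known to respond to thyroid hormone, with earlier results of these data known. All 10 were found among the 17034 genes with values in the count table. RNA was taken from gastrocnemius, the large calf muscle, of male mice that were 8 weeks old and had free access to chow. The 3 samples labelled TRa_mKO came from mice with Thra fl/fl, the floxed gene of thyroid hormone receptor alpha, and a Myf5-Cre transgene. The 3 WT samples came from littermates with Thra fl/fl and no Cre, so the floxed allele is common to both groups. Myf5 is active in embryonic muscle precursors and also in precursors of brown fat, so that the driver is not limited to muscle fibres. Visible fat was trimmed from the muscles, per the labels' protocols. The sources used here give neither the time of day nor the hours since the last meal.

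In lipogenesis, citrate leaves the mitochondria and is cut to acetyl-CoA, which is carboxylated to malonyl-CoA and joined into palmitate at the expense of NADPH. Palmitate is then lengthened and desaturated. In liver and fat the genes of this route are switched on together by insulin, dietary carbohydrate and thyroid hormone. In skeletal muscle little new fat is made, and malonyl-CoA serves mainly to restrain the entry of fatty acids into mitochondria.

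Of the 10 genes, 1 passed the test of genotype: Thrsp was lower in TRa_mKO muscle. The other 9 did not pass. All 10 were expressed well enough to be tested, and none shared reads with another feature. The test was the quasi-likelihood test of edgeR over 13118 genes, with a Benjamini-Hochberg adjusted p below 0.05 taken as changed. Against the 1 member of 10 that fell and the 0 that rose, 1.65% of all tested genes were called lower, 2.52% higher and 4.17% in either direction. By library size alone, without TMM, the upward share of calls was 45.5%, against 60.5%, and Thrsp was still called (-0.66). For the risers, 0 members had an unadjusted p under 0.05 in edgeR, and DESeq2 and limma-voom called 0. Of all 13118 tested genes, 2352 had an unadjusted p under 0.05 in edgeR, in either direction. DESeq2 called 762 of them and limma-voom 508. The median log2 fold change was -0.16 over the 10 genes and -0.00032 over all tested genes.

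Library totals lay between 12390527 and 14488500 counts. Markers of skeletal muscle were abundant in every library, with a summed level of 118923 to 136476 CPM (counts scaled to library size and, by TMM, to library composition) in TRa_mKO and 95037 to 126292 CPM in WT. Of these 8 markers edgeR called 0, 2 were higher at an unadjusted p under 0.05, DESeq2 called Acta1 and Mylpf higher, and limma-voom called 0. Their median log2 fold change was 0.29, opposite in sign to that of Thrsp. For 4 of them (Ckm, Acta1, Mylpf and Actn3) every TRa_mKO library was above every WT library, an arrangement seen in 13.2% of tested genes. The part of these markers in the Thrsp result was not tested. The targeted gene Thra measured 129, 118 and 101 CPM under the label TRa_mKO and 78.8, 92.8 and 96.8 CPM in WT libraries, and did not pass (log2 fold change 0.37, adjusted p = 0.117). A count over the whole gene includes exons outside the deleted part and shares reads with other features, so it checks neither the deletion nor the labels. Directions below rest on the labels. In whole muscle, fewer cells of a type and less RNA per cell cannot be told apart.

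The promoter windows of Thrsp and Me1 are shown because both genes are classical thyroid hormone responders of rodent liver and only Thrsp passed the test here. The sequences are RefSeq windows on GRCm38.p6, read on the gene's strand from 250 bases before to 50 bases after the annotated start. The Thrsp window is chr7:97417501-97417800, minus strand, and its capitals mark CCAAT on either strand. Of the 2 Me1 windows in the RefSeq table, the one shown, chosen because it held a match, is chr9:86695865-86696164, minus strand, and its capitals mark the closest match to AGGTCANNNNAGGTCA, the direct repeat bound by thyroid hormone receptors.
Thrsp: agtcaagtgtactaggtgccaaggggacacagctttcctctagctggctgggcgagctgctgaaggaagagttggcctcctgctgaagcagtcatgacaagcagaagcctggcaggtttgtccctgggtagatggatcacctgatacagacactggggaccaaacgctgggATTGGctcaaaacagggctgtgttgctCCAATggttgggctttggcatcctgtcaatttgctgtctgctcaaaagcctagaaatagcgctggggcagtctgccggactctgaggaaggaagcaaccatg
Me1: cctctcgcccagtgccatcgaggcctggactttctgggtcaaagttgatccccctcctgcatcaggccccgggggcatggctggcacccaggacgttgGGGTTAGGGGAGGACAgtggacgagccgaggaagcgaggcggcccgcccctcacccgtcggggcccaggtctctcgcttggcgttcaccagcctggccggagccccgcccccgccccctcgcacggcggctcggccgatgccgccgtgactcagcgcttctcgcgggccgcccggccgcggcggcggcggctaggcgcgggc

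Thrsp held CCAAT at 2 places, from -79 on the reverse strand and from -52 on the forward strand, counted from the start. Both strands of 32851 RefSeq windows of 300 bases were searched, and 37.4% held CCAAT. Neither the Thrsp window nor the Me1 windows held the half-site AGGTCA, found in 16.3% of windows. The Me1 match began at -152 and differed from the repeat at 3 of 12 compared bases, with the 4 spacer bases free. A match that close, or closer, occurred in 21.9% of all windows and not in that of Thrsp, and the exact repeat in 0.0152%. The other Me1 window, chr9:86687228-86687527, held no match that close and held CCAAT, from -208 on the reverse strand. In rat, the thyroid response region of Thrsp lies farther upstream than such a window reaches. The other members with a window were Acaca, Acacb, Acly, Elovl6, Fasn, Mlxipl and Srebf1.

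Thrsp encodes Spot 14, a small nuclear and cytosolic protein that promotes lipogenesis and is named for its fast response to thyroid hormone in rat liver. Its level (gene ID 21835) was 15.6, 20.0 and 17.9 CPM in TRa_mKO libraries 1 to 3 and 28.5, 24.9 and 28.0 CPM in WT libraries 1 to 3. Every TRa_mKO library lay below every WT library, an arrangement seen in 10.1% of tested genes. The means were 17.8 ± 2.21 CPM in TRa_mKO and 27.1 ± 1.93 CPM in WT (SD, n = 3 each), or 1.52-fold more in WT (log2 fold change -0.61, SE 0.11, 95% confidence interval -0.86 to -0.36, edgeR adjusted p = 0.016). The call ended without WT replicate 1 (log2 fold change -0.58, adjusted p = 0.051) and without WT replicate 3 (-0.59, adjusted p = 0.0579), while the size of the difference stayed between -0.70 and -0.52 whichever library was left out.

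Endothelial markers leaned in the same direction as Thrsp. All 6 of them had negative log2 fold changes, with a median of -0.37, and their summed level was 635 to 884 CPM in TRa_mKO and 889 to 1086 CPM in WT. The groups did not overlap in this sum. The edgeR test called 0 of the 6 markers. Unadjusted edgeR p-values were below 0.05 for 5 of them, and for 2352 of all 13118 tested genes. DESeq2 called 1, Kdr, and limma-voom called 0. Taken singly, 2 of the 6 (Pecam1 and Emcn) had every TRa_mKO library below every WT library, as had 10.1% of tested genes. None of the 6 was at 0 in any library. The part of endothelial RNA in the Thrsp result was not tested.

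Mid1ip1, a close relative of Thrsp, encodes a partner that binds acetyl-CoA carboxylase and helps it to polymerise. It measured 39.8, 36.7 and 37.2 CPM in TRa_mKO and 42.2, 42.5 and 39.0 CPM in WT. The groups overlapped at their edges, and Mid1ip1 did not pass (log2 fold change -0.12, adjusted p = 0.478). The ratio of Thrsp to Mid1ip1 within a library, which does not depend on scaling between libraries, was 0.392, 0.545 and 0.482 in TRa_mKO and 0.676, 0.587 and 0.719 in WT. The ranges of this ratio did not overlap, and the mean log2 ratio differed by -0.49 (two-sided exact permutation p = 0.1, which is the smallest that 3 against 3 libraries allow, and 0.4 when adjusted over 4 ratios).

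**Figure D1:**
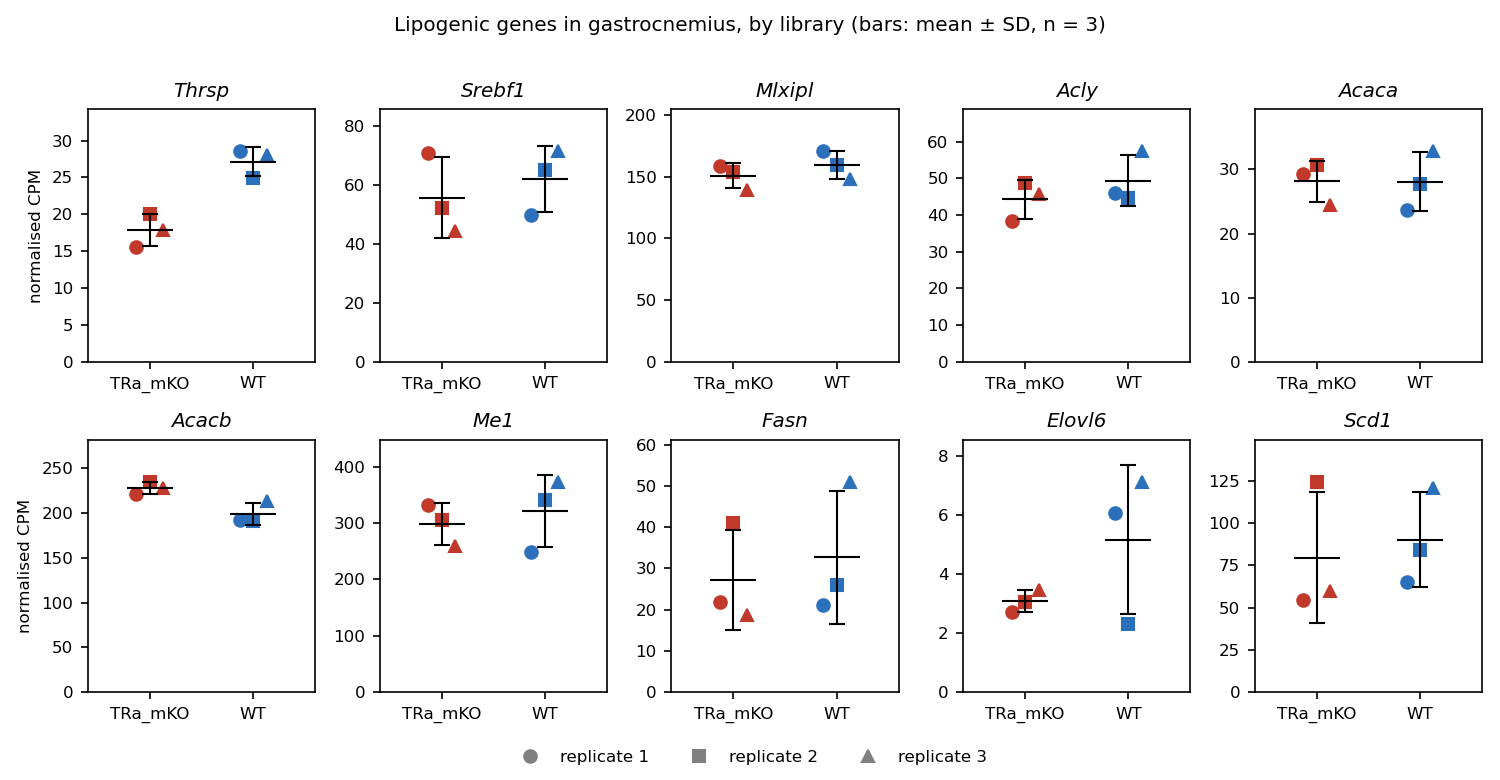
Normalised CPM of the 10 lipogenic genes in each library, with TRa_mKO libraries in red and WT libraries in blue, marker shape giving the replicate number and bars the mean ± SD (n = 3). Thrsp (15.6 to 20.0 CPM in TRa_mKO, 24.9 to 28.5 CPM in WT) and Acacb are the genes whose groups do not overlap, and Fasn and Scd1 each have 1 high library in either genotype.

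The transcription factors of the pathway did not pass. Srebf1 encodes the sterol response element binding protein through which insulin turns on fatty acid synthesis. It measured 70.7, 52.0 and 44.3 CPM in TRa_mKO and 49.7, 65.0 and 71.2 CPM in WT. The groups overlapped over nearly their whole range (log2 fold change -0.16, SE 0.19, 95% confidence interval -0.59 to 0.28, edgeR adjusted p = 0.736). With the summed level of 8 white adipocyte markers as a covariate, Srebf1 passed at -0.53 (adjusted p = 0.0296), while in the other 18 alternatives it did not. Most of that sum came from Fabp4, which capillary endothelium also expresses. With the 7 markers other than Fabp4 as the covariate, Srebf1 stood at -0.14 (edgeR adjusted p = 0.82). Its cholesterol-side relative Srebf2 measured 21.5, 19.1 and 22.5 CPM in TRa_mKO and 25.2, 24.1 and 27.1 CPM in WT, all TRa_mKO libraries below WT, and did not pass (log2 fold change -0.28, adjusted p = 0.171). The ratio of Srebf1 to Srebf2 overlapped between genotypes (1.97 to 3.28 in TRa_mKO, 1.97 to 2.70 in WT, exact permutation p = 0.6).

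Mlxipl encodes the carbohydrate response element binding protein, which senses glucose products and acts on lipogenic and glycolytic genes. Levels were 159, 154 and 139 CPM in TRa_mKO and 170, 160 and 148 CPM in WT. This was the steadiest of the regulators, and its interval was narrow (log2 fold change -0.08, SE 0.10, 95% confidence interval -0.30 to 0.14, adjusted p = 0.733). Both ends of that interval lie closer to 0 than the estimate for Thrsp.

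Among the genes that supply precursors, Acly encodes ATP citrate lyase, which makes cytosolic acetyl-CoA. It measured 38.4, 48.6 and 45.7 CPM in TRa_mKO and 46.0, 44.5 and 57.3 CPM in WT. The groups overlapped and Acly did not pass (log2 fold change -0.16, SE 0.12, 95% confidence interval -0.43 to 0.11, edgeR adjusted p = 0.546).

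Neither acetyl-CoA carboxylase passed. Acaca, the cytosolic form that feeds fatty acid synthesis, measured 29.2, 30.7 and 24.5 CPM in TRa_mKO and 23.7, 27.7 and 32.8 CPM in WT. Its means were 28.1 ± 3.23 CPM in TRa_mKO and 28.1 ± 4.59 CPM in WT (SD, n = 3 each), with a 95% confidence interval of the log2 fold change of -0.29 to 0.29 (adjusted p = 0.999). Acacb, the form at the mitochondrial outer membrane whose malonyl-CoA inhibits carnitine palmitoyltransferase, measured 222, 235 and 228 CPM in TRa_mKO and 193, 191 and 213 CPM in WT. Every TRa_mKO library was above every WT library, as were 13.2% of tested genes, but the difference was small and did not pass (log2 fold change 0.20, SE 0.09, 95% confidence interval -0.01 to 0.40, adjusted p = 0.296).

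Acacb counts exceeded those of Acaca in all 6 libraries. The within-library ratio of Acacb to Acaca in CPM was 7.59, 7.66 and 9.30 in TRa_mKO and 8.14, 6.87 and 6.50 in WT. The groups overlapped, so the ratio did not part the genotypes (difference in mean log2 ratio 0.19, exact permutation p = 0.3).

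Me1 encodes cytosolic malic enzyme, a source of NADPH and a thyroid hormone target of rodent liver. Levels were 333, 305 and 259 CPM in TRa_mKO and 250, 340 and 374 CPM in WT. The WT libraries alone spanned more than the TRa_mKO libraries did, and Me1 did not pass (log2 fold change -0.10, SE 0.16, 95% confidence interval -0.45 to 0.24, adjusted p = 0.792).

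**Figure D2:**
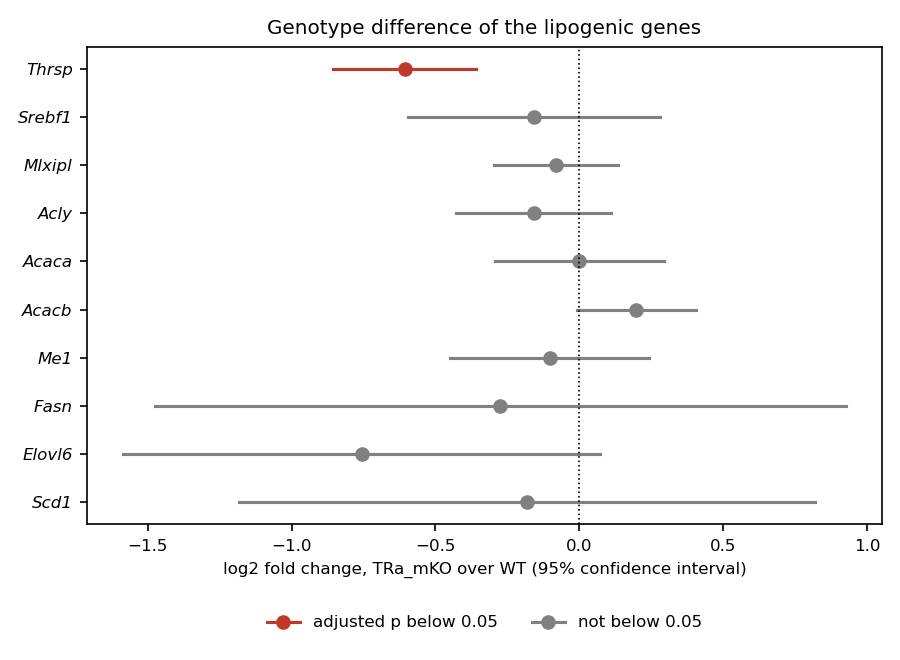
Log2 fold change of each lipogenic gene, TRa_mKO over WT (x axis), with its 95% confidence interval; red marks an adjusted p below 0.05 in edgeR. Thrsp, at -0.61, is the gene whose interval lies wholly to one side of 0, and the intervals of Fasn, Elovl6 and Scd1 are the widest.

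None of the enzymes that build and modify the chain passed. Fasn encodes fatty acid synthase. It measured 21.9, 41.1 and 18.8 CPM in TRa_mKO and 21.1, 25.9 and 51.0 CPM in WT. In each genotype 1 library stood well above the other 2, TRa_mKO replicate 2 and WT replicate 3. The log2 fold change was -0.27 (SE 0.47, 95% confidence interval -1.48 to 0.93, adjusted p = 0.832), an interval wide enough to hold a difference as large as that of Thrsp. Without WT replicate 3 the estimate changed sign to 0.21 (adjusted p = 0.846).

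Scd1 encodes stearoyl-CoA desaturase, which makes oleate. Its levels were 54.7, 125 and 59.6 CPM in TRa_mKO and 65.3, 84.2 and 121 CPM in WT, with the same 2 libraries highest as for Fasn. It did not pass (log2 fold change -0.18, SE 0.40, 95% confidence interval -1.18 to 0.82, adjusted p = 0.875). Scd2, a desaturase gene more typical of nerve and developing tissue, measured 84.6, 68.9 and 67.4 CPM in TRa_mKO and 129, 78.8 and 145 CPM in WT and did not pass either (log2 fold change -0.67, adjusted p = 0.151), although DESeq2 called it lower. The ratio of Scd1 to Scd2 ranged from 0.646 to 1.81 in TRa_mKO and from 0.508 to 1.07 in WT (exact permutation p = 0.5).

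Elovl6 encodes the elongase that turns palmitate into stearate, and it was the member with the fewest counts. It measured 2.71, 3.07 and 3.46 CPM in TRa_mKO and 6.06, 2.32 and 7.13 CPM in WT. The lowest library of all was WT replicate 2, so the groups overlapped. Its estimate was larger than that of Thrsp but did not pass (log2 fold change -0.76, SE 0.36, 95% confidence interval -1.58 to 0.07, adjusted p = 0.321). Without WT replicate 2 it passed, at -1.10 (adjusted p = 0.023).

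Across libraries, 1 library of each genotype was often the highest for these genes. TRa_mKO replicate 2 was the highest of its genotype for 6 of 10 members and the lowest for 0. WT replicate 3 was the highest WT library for 8 of 10 members. Over all tested genes, TRa_mKO replicate 2 was the highest of its genotype for 29.1% and WT replicate 3 for 35.2%. Replicates of Fasn varied with a coefficient of variation of 44.4% in TRa_mKO and 49.2% in WT, and those of Scd1 with 48.9% in TRa_mKO and 31.3% in WT. For comparison, the median over the 9029 tested genes with a mean of at least 10 CPM was 8.10% in TRa_mKO and 7.64% in WT. Acacb, at 2.91% in TRa_mKO and 6.31% in WT, varied less than that median in both genotypes, and Thrsp varied by 12.4% in TRa_mKO and 7.12% in WT.

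Markers of fat cells varied with these libraries. White adipocyte markers other than Fabp4 (Adipoq, Lep, Plin1, Cidec, Cfd, Retn and Adrb3) summed to 31.0, 57.8 and 25.5 CPM in TRa_mKO and 38.3, 39.8 and 45.0 CPM in WT. The highest were thus TRa_mKO replicate 2 and WT replicate 3, the same libraries as for Fasn and Scd1. Adiponectin, Adipoq, measured 4.69, 9.60 and 3.18 CPM in TRa_mKO and 5.24, 5.96 and 6.01 CPM in WT. Fabp4, which capillary endothelium also expresses, made up most of the sum of all 8 markers, which was 496 to 682 CPM in TRa_mKO and 600 to 834 CPM in WT (exact permutation p = 0.2). None of the 8 was at 0 in any library. Of the 7 that could be tested edgeR called 0, with 0 at an unadjusted p under 0.05 and 0 by DESeq2 and limma-voom. Their log2 fold changes were positive for 3 and negative for 4, from -0.58 to 0.68, with a median of -0.07. Lep, which was not tested, was lower in every TRa_mKO library (0.29 to 0.42 CPM) than in any WT library (0.70 to 0.92 CPM). The part of white fat RNA in the Thrsp result was not tested apart from the covariate fits below. With the 7 markers other than Fabp4 as a covariate, Fasn stood at -0.093 (SE 0.29, edgeR adjusted p = 0.919) and Scd1 at -0.037 (SE 0.19, adjusted p = 0.953). With all 8 markers, Fasn stood at -0.72 (SE 0.48, adjusted p = 0.527) and Scd1 at -0.44 (SE 0.52, adjusted p = 0.738). Both genes thus stayed short of the threshold, and their estimates moved in opposite directions with the choice of markers.

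The same fits gave values for Thrsp. With the 7 markers, an alternative chosen after the data were seen, its log2 fold change was -0.57 (adjusted p = 0.0349). With all 8 markers it was -0.55 (adjusted p = 0.0698). Without TRa_mKO replicate 2 and WT replicate 3 together it was -0.68, and the call was lost (adjusted p = 0.104). That setting called 71 genes, against 547 in the reported test. Haemoglobin counts were highest in TRa_mKO replicate 3 and WT replicate 1, and without these libraries Thrsp stood at -0.58 and was not called (adjusted p = 0.11).

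Within WT, Thrsp, Elovl6 and Scd2 were each lowest in the library that was lowest for another marker list. Schwann cell markers summed to 502, 589 and 685 CPM in TRa_mKO and 1310, 321 and 1256 CPM in WT. Thus WT replicates 1 and 3 were high and WT replicate 2 low, as for Thrsp, Elovl6 and Scd2. Among TRa_mKO libraries, the Schwann sum and 5 of 10 members (Thrsp, Elovl6, Acly, Acacb and Scd1) were lowest in replicate 1. Scd2 went the other way and was highest there (84.6, 68.9 and 67.4 CPM). The other 5 members were lowest in TRa_mKO replicate 3, where the Schwann sum was highest. This order was not particular to Schwann markers. Fibroblast and macrophage sums were also lowest in TRa_mKO replicate 1 (1173 and 40.7 CPM) and, within WT, in replicate 2 (1194 and 42.9 CPM). WT replicate 2 lay below every TRa_mKO library for the Schwann sum and for Elovl6, but above every one for Thrsp. All 6 Schwann cell markers had negative log2 fold changes, with a median of -0.69, and none was at 0 in any library. For these 6, edgeR called 0, 1 had an unadjusted p under 0.05, and DESeq2 and limma-voom called 0. The part of nerve RNA in the levels of Thrsp, Elovl6 and Scd2 was not tested. Among brown fat markers, Ucp1 and Elovl3 were at 0 in some libraries, and most of their sum came from Cox8b, which muscle also expresses. All 4 tested brown fat markers had positive log2 fold changes, with a median of 0.38. Without Cox8b the sum was 8.995 to 12.75 CPM in TRa_mKO and 6.429 to 9.805 CPM in WT, so the groups overlapped. Ucp1 had 19 counts in TRa_mKO replicate 2, 1 in WT replicate 1 and 0 in the remaining libraries. For this list edgeR called 0 genes, with 0 at an unadjusted p under 0.05, and DESeq2 and limma-voom called 0. The part of brown fat RNA in the levels of the 10 members was not tested.

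**Figure D3:**
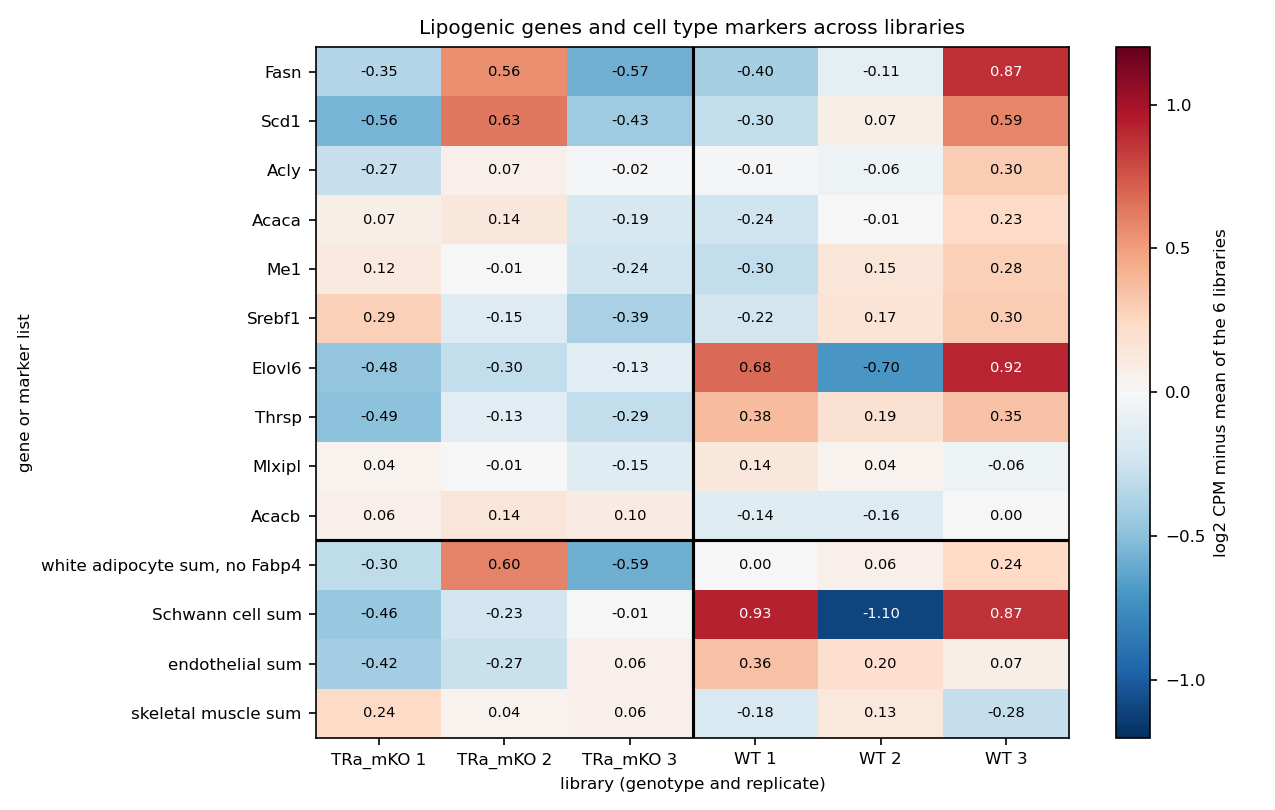
Log2 CPM of each lipogenic gene (upper rows) and of summed cell type markers (lower rows) in each library, minus the mean of the 6 libraries; red is above and blue below that mean. Fasn and Scd1 are high in TRa_mKO replicate 2 and WT replicate 3, as are the white adipocyte markers. In WT, Thrsp, Elovl6, Acly, Acacb and the Schwann cell sum are each lowest in replicate 2. Thrsp is below its mean in all TRa_mKO libraries and above it in all WT libraries.

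Levels between genes were compared as CPM per kilobase of the longest GENCODE protein-coding transcript, so that an error in the assumed transcript moves a gene in the order. Me1 was the most abundant member, at 90.9 ± 11.2 CPM per kilobase in TRa_mKO and 97.6 ± 19.5 in WT, followed by Mlxipl at 41.6 ± 2.79 in TRa_mKO and 44.0 ± 3.09 in WT. The ranges of both stood apart from the next gene in either genotype. In WT the next were Acacb (22.6 ± 1.43), Thrsp (21.3 ± 1.51), Scd1 (18.7 ± 5.84), Srebf1 (14.4 ± 2.58) and Acly (11.1 ± 1.58), whose ranges overlapped from each to its neighbour. Fasn and Acaca overlapped each other well below these, with Fasn at 1.87 to 4.09 CPM per kilobase in TRa_mKO and 2.10 to 5.08 in WT, and Acaca at 2.96 ± 0.339 in TRa_mKO and 2.95 ± 0.482 in WT. Elovl6 was the least abundant, at 0.517 ± 0.0631 in TRa_mKO and 0.869 ± 0.424 in WT. Thrsp averaged less than Acacb in both genotypes, with a wider gap in TRa_mKO. It lay at 12.2 to 15.7 CPM per kilobase in TRa_mKO, where Acacb lay at 25.2 to 26.7, and at 19.5 to 22.3 in WT, where Acacb lay at 21.7 to 24.3. Scd1 averaged 16.5 ± 8.06 in TRa_mKO, above Thrsp there and below it in WT, but the ranges of these genes overlapped in both genotypes.

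Other genes of the pathway were read from 5 lists with 66 genes, of which 59 were tested. Of these, 4 were lower and 1 was higher, or 8.47% against the 4.17% called among all tested genes. The lists were chosen with earlier results of these data known, so this share is a description. Among 16 other regulators of lipogenesis 1 was lower and 0 higher. The one that passed was Nr1h3, the oxysterol receptor LXR alpha, which drives Srebf1 transcription in liver. It measured 9.23, 10.7 and 10.2 CPM in TRa_mKO and 17.5, 17.0 and 18.9 CPM in WT, well apart (log2 fold change -0.83, SE 0.11, edgeR adjusted p = 0.0032). Its call held with each single library left out (adjusted p = 0.00919 to 0.0189). Nr1h2, the LXR beta gene, did not pass (38.0 CPM in TRa_mKO and 37.5 CPM in WT, adjusted p = 0.954). The median over the list was -0.04. At an unadjusted p under 0.05 in edgeR, 3 members including Nr1h3 were lower and 2 were higher. DESeq2 and limma-voom each called 1 lower, Nr1h3, and 0 higher. Of all 13118 tested genes, 2352 had such an unadjusted p, and DESeq2 called 762 and limma-voom 508, in either direction.

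In the list of precursor and NADPH supply, 1 of 12 genes was lower and 0 higher. It was Idh1, cytosolic isocitrate dehydrogenase, which like malic enzyme yields NADPH. Idh1 measured 26.6, 33.7 and 31.2 CPM in TRa_mKO and 44.0, 43.4 and 43.5 CPM in WT (log2 fold change -0.52, SE 0.10, edgeR adjusted p = 0.016). The WT libraries were nearly level and all TRa_mKO libraries lay below them. The call ended without WT replicate 3 (adjusted p = 0.0527). The list's median was -0.11. At an unadjusted p under 0.05 in edgeR, 3 members including Idh1 were lower and 2 were higher. DESeq2 called 1 lower, Idh1, and 2 higher, Acss2 and Mlycd. With limma-voom, 1 was lower, Idh1, and 0 higher. Over all 13118 tested genes, these numbers in either direction were 2352 for the unadjusted p, 762 for DESeq2 and 508 for limma-voom.

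Of 13 tested genes of elongation and desaturation, 1 was higher and 1 lower, with a median of -0.20. Hacd1, a dehydratase of the elongation cycle that muscle expresses strongly, measured 167, 137 and 140 CPM in TRa_mKO and 88.2, 113 and 94.6 CPM in WT (log2 fold change 0.58, SE 0.12, edgeR adjusted p = 0.0263). Fads2, the desaturase of polyunsaturated fatty acids, measured 6.22, 4.76 and 6.09 CPM in TRa_mKO and 9.13, 7.90 and 11.0 CPM in WT (log2 fold change -0.72, SE 0.17, adjusted p = 0.0489). Hacd1 lay wholly above WT, as did 13.2% of tested genes, and Fads2 wholly below, as did 10.1%. Elovl5 and Hacd3, which were not called, also lay wholly below. Neither the Hacd1 nor the Fads2 call was firm. That of Hacd1 ended without TRa_mKO replicate 1 or 2 or WT replicate 1 or 3 (adjusted p = 0.0501, 0.0692, 0.0897 and 0.0845). That of Fads2 ended with limma-voom (adjusted p = 0.0629) and under every single omission except that of WT replicate 2 (adjusted p = 0.0623 to 0.179).

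Of 11 tested genes of triglyceride synthesis, 1 was lower and 0 higher, with a median of 0.10. Lpin1 encodes lipin, a phosphatidate phosphatase of triglyceride synthesis that also acts as a coactivator of fatty acid oxidation genes. It measured 186, 160 and 114 CPM in TRa_mKO and 336, 281 and 282 CPM in WT (log2 fold change -0.97, SE 0.17, edgeR adjusted p = 0.0141), the largest difference among the calls of the 5 lists. That call ended without TRa_mKO replicate 2 (adjusted p = 0.058). For the risers, 3 members had an unadjusted p under 0.05, DESeq2 called 2, Dgat2 and Gpat3, and limma-voom 0. Over all 13118 tested genes and both directions, 2352 had such an unadjusted p, and DESeq2 called 762. Of 7 tested targets of carbohydrate response factors, such as Txnip, edgeR called 0, with 0 at an unadjusted p under 0.05 and 0 by DESeq2 and limma-voom, and the median was 0.11.

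**Figure D4:**
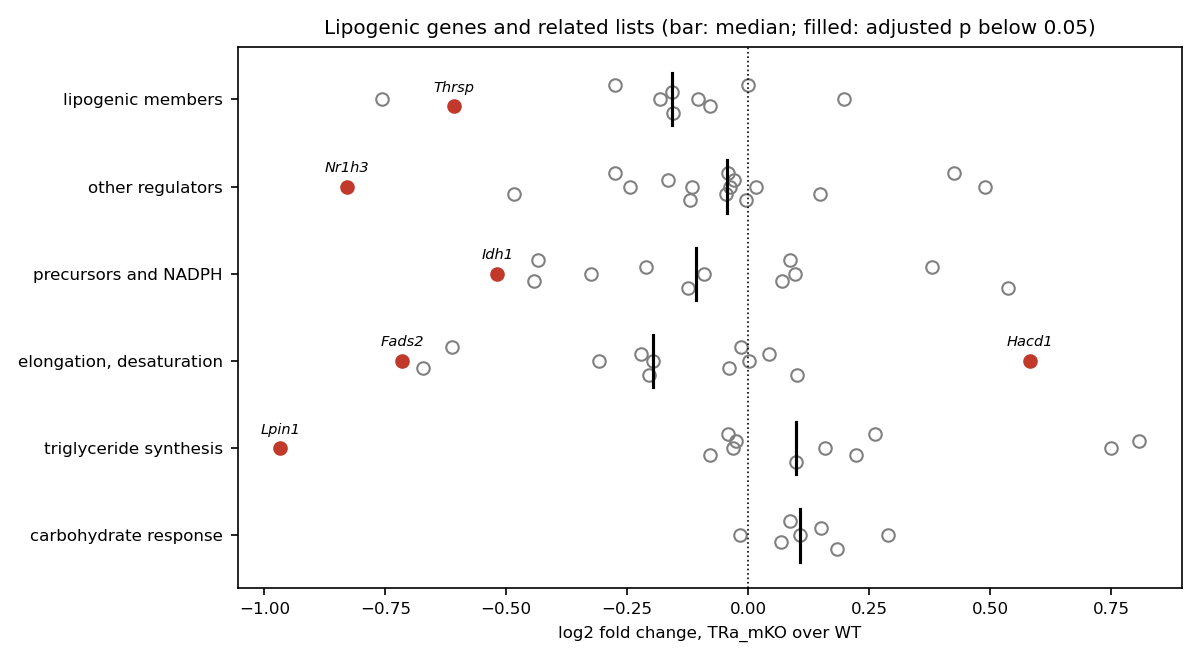
Log2 fold change, TRa_mKO over WT (x axis), of every tested lipogenic gene and of 5 related lists; filled red points passed edgeR at an adjusted p below 0.05, open points did not, and black bars are list medians, from -0.20 to 0.11. The named calls are Thrsp, Nr1h3, Idh1, Fads2 and Lpin1 on the lower side and Hacd1 on the higher side.

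The 5 genes whose centred log2 CPM over the 6 libraries lay closest to that of Thrsp, among 11945 compared, were Fmo2, Aplp1, Idh1, Kbtbd8 and Faap100, with root mean square distances of 0.06 to 0.09 on the log2 scale. Fmo2, a flavin monooxygenase, measured 54.1, 78.7 and 68.6 CPM in TRa_mKO and 110, 95.3 and 107 CPM in WT. Faap100, a part of the Fanconi anaemia core complex, measured 12.6, 13.1 and 12.2 CPM in TRa_mKO and 20.7, 17.4 and 19.9 CPM in WT. Of the 5, the list of precursor and NADPH supply held Idh1, and none was another of the 10 members. They share libraries and depth with Thrsp, and were picked for their likeness to it, so their genotype difference is a description.

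**Figure D5:**
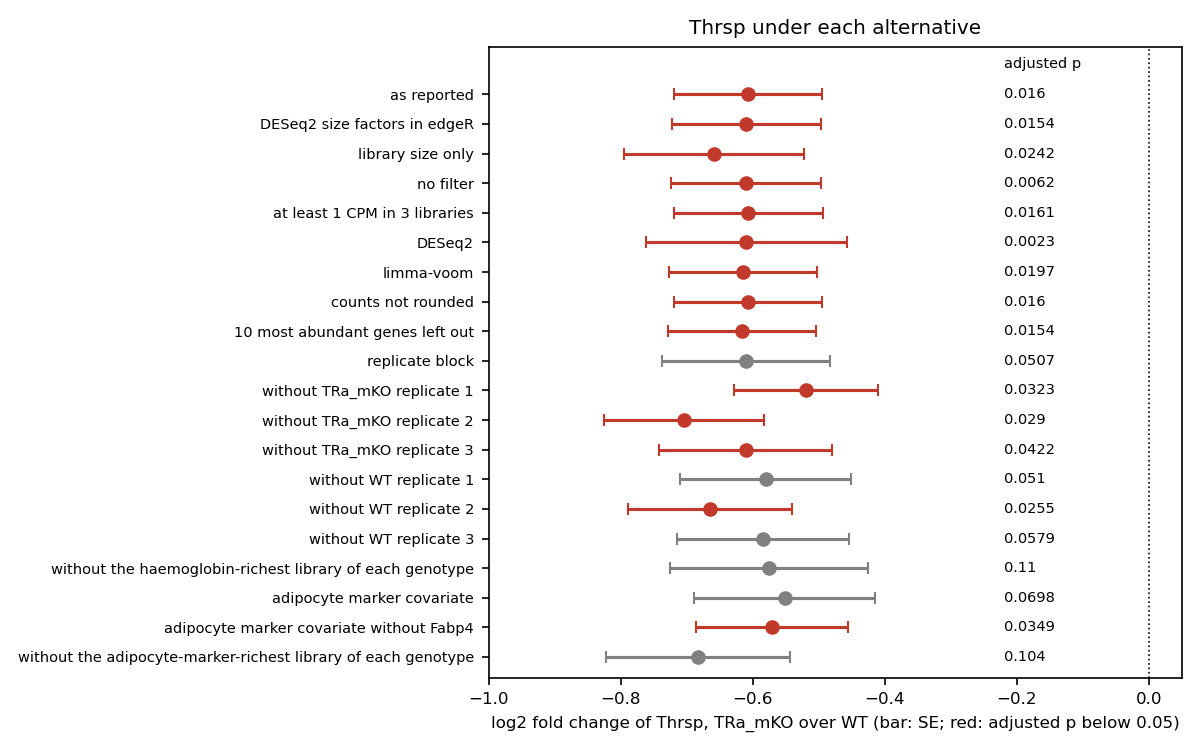
Log2 fold change of Thrsp, TRa_mKO over WT (x axis), with its SE, under the reported test and 19 alternatives; red marks an adjusted p below 0.05, printed at the right. Every estimate lies between -0.70 and -0.52, and 13 of the 19 alternatives passed.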

How the data were processed

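Polyadenylated RNA of 6 mouse muscle samples was sequenced, 3 per genotype, all in batch 1 per the labels. The authors deposited 1 unnormalized gene table, which the file headers call counts. They are treated as estimated counts, because in the deposited values 9.65% to 10.0% of a library's values were not whole; all were rounded. Per the submitters' processing notes, tools included featureCounts, Trimmomatic 0.39, FastQC 0.11.9 and MultiQC 1.12, with GRCm39, GRCm38.p6 and mm10 listed as builds without a role. The aligner is not given in the sources used here. Of 74693 features, 17034 had values. Value columns given to no sample numbered 0.

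Genes were kept by filterByExpr (minimum count 10), normalized by TMM and tested with edgeR 4.0.16 (quasi-likelihood, robust, two-sided) in R 4.3.3, adjusted over 13118 genes; the common biological coefficient of variation was 11.8%. The step was tested on simulated counts, in 5 runs with 200 changed genes each. It recovered 51.4% of 1.5-fold and 86.3% of 2-fold changes, and 8.55% of its calls were false. Alternatives used DESeq2 1.42.0, limma 3.58.1 (voom), other scaling and filters, a replicate block, left-out libraries and an adipocyte covariate. Each of the 3 replicates per genotype carries its own number in the column names; no label states that each is a separate mouse, so p-values measure the spread between these samples. No pair agreed within sampling noise (chi-square per degree of freedom 7.77 to 40.0). Profiles were centred on log2(CPM + 0.5). Figures and sequences used Python 3.11.15.

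The members and lists were chosen with earlier results of these data known. Named are the 10 members, Thra, Mid1ip1, Scd2, Srebf2, up to 4 called genes per related list and the 5 genes nearest Thrsp (mean log2 CPM of at least 1, clone-like symbols skipped). Genes named beside them for a count (Nr1h2, Acss2, Mlycd, Dgat2, Gpat3, Txnip and markers) were chosen after their values were seen, and markers of fibroblasts, macrophages and red cells are summarised in the closing section.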

Additional observations from a re-analysis of the deposited data

How the results depend on the processing

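The replicate numbers gave no sign of pairing the samples, though deviations from means of 3 libraries cannot exclude it. The correlations of deviations between same-numbered libraries were -0.18, 0.01 and -0.03. Of the 3 TRa_mKO libraries, 1 correlated best with its own number. With the replicate number as a block, 357 genes were called, 0 members and 3 of the related genes, and Thrsp stood at -0.61 (adjusted p = 0.0507). Leaving out 1 library gave 209 to 595 genes (209 without TRa_mKO replicate 2, 361 without WT replicate 2, 310 without WT replicate 3), 0 to 2 members, 2 to 7 related genes and Thrsp at -0.70 to -0.52. Leaving out the haemoglobin-richest library of each genotype gave 267 genes, 0 members, Thrsp at -0.58 (adjusted p = 0.11) and Mlxipl at 0.024. DESeq2 called 10 related genes. With all adipocyte markers as covariate, Thrsp stood at -0.55. With the 7 markers other than Fabp4, 3 related genes were called and Acaca was at 0.057. Without the library richest in those 7 markers of each genotype, there were 71 genes, 0 members, 0 related genes, Thrsp at -0.68 and Acaca at 0.054; these last 2 settings were chosen after seeing the data.

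Sign changes touched genes that had not passed. Acaca turned to 0.00025 with a filter of at least 1 CPM in 3 libraries, 0.0015 with limma-voom, 0.0060 with the replicate block, 0.09 without TRa_mKO replicate 3 and 0.13 without WT replicate 3 (leave-one-out range -0.12 to 0.13). Leave-one-out ranges were -0.27 to 0.019 for Me1, -0.70 to 0.21 for Fasn and -0.67 to 0.088 for Scd1, each positive without WT replicate 3. Leave-one-out values of the log2 ratio differences were -0.023 to 0.72 for Scd1 over Scd2 and -0.058 to 0.31 for Srebf1 over Srebf2. Of 19 alternatives, calls were lost in 12 for Fads2, 9 for Hacd1, 8 for Fmo2, 4 for Idh1, 3 for Lpin1 and Faap100 and 1 for Nr1h3, and gained in 1 each for Elovl6 and Srebf1. The causes were not tested. With 3 samples per genotype, intervals as wide as those of Fasn, Scd1 and Elovl6 limit what could be detected.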

Other observations

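Other marker lists, given as values: fibroblast markers summed to 1173 to 1719 CPM in TRa_mKO and 1194 to 1634 CPM in WT, macrophage markers to 40.7 to 60.5 CPM in TRa_mKO and 42.9 to 59.1 CPM in WT, and red cell markers to 710 to 1621 CPM in TRa_mKO and 458 to 1763 CPM in WT. In these lists edgeR called 0 genes; 1, Col3a1, had an unadjusted p under 0.05 and was called by DESeq2, and limma-voom called 0.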
